A study of Mus musculus with 6 samples.

Results

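The genes described are 10 steps of glucose use and lactate exchange: the glucose transporter Slc2a1, the hexokinases Hk1 and Hk2, the liver-type phosphofructokinase Pfkl, the aldolase Aldoa, the dehydrogenase Gapdh, the enolase Eno1, the pyruvate kinase Pkm, the lactate dehydrogenase Ldha and the lactate transporter Slc16a1. They are named genes of the pathway, found by matching the Ensembl gene IDs of the count files to mouse GENCODE symbols on GRCm38. All 10 of the 10 names were found among the 55421 genes listed. The samples are whole-tissue RNA-seq libraries of the mouse cornea at an age of 20 weeks: 3 carry a Pax6 mutation on one allele (heterozygous, M1 to M3) and 3 are wildtype (W1 to W3). The labels name neither the mutant allele nor the strain or sex, and mention no other allele or treatment. The series design speaks of biological replicates, but no label says which libraries came from separate animals or pools, so the p-values measure the spread between these libraries.

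Glycolysis splits glucose into pyruvate and yields ATP without oxygen, and lactate dehydrogenase turns pyruvate into lactate while restoring the NAD+ that Gapdh consumes. The cornea has no vessels in its centre and takes its glucose largely from the aqueous humour. Its epithelium stores glycogen and releases much of its glucose carbon as lactate, which leaves the tissue through monocarboxylate transporters, partly by way of the endothelial pump. Pax6 encodes a transcription factor that the corneal epithelium needs for its identity.

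Libraries held 16858005 to 21846406 counts in genes, and levels are given as CPM, counts scaled to library totals corrected by TMM factors. Pax6 itself stood at 454, 394 and 356 CPM in M1, M2 and M3 and at 849, 746 and 774 CPM in W1, W2 and W3. Its log2 fold change was -0.98 ± 0.14 (SE, n = 3 per group, Benjamini-Hochberg adjusted p = 0.0042, edgeR quasi-likelihood test). Every library labelled mutant lay below every wildtype library. Pax6 is also among the 9 corneal epithelium markers summed below, so its level does not by itself show which allele a library carries. By Xist and Y-linked counts, M1 was the only female library. A fit with sex as a covariate thus compares M2 and M3 with the wildtype libraries and cannot separate sex from M1. W1 lay apart on the first principal component, at 122 against -67.2 to 23.2 for the others. The summed level of 9 corneal epithelium markers, which include Krt12, was 18054 to 24543 CPM in mutant and 38274 to 52094 CPM in wildtype libraries, so the tissue label was borne out by its defining genes. The mutant libraries held more of the markers of conjunctiva (6 genes, 16246 to 17544 CPM against 5122 to 8591 CPM), of leukocytes (8 genes, 184 to 230 CPM against 37.9 to 50.2 CPM), of stroma (9 genes, 1115 to 5002 CPM against 376 to 538 CPM) and of corneal endothelium (6 genes, 1087 to 1448 CPM against 561 to 701 CPM). The part that cell makeup has in any value given here was not tested. In bulk tissue, fewer cells of a type and less RNA per cell cannot be told apart.

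None of the 10 genes was called different between the genotypes. In the edgeR quasi-likelihood test, at a Benjamini-Hochberg adjusted p of 0.05, 0 of 10 were higher and 0 of 10 lower in mutant corneas, where 10.1% of the 15209 genes tested were called, 5.59% higher and 4.46% lower. DESeq2 and limma-voom also called 0 of 10. At an unadjusted p of 0.05, 1 of 10 passed, Hk2, where 23.8% of all tested genes did. The libraries of both genotypes overlapped for every one of the 10, where 31.9% of all tested genes had groups that did not overlap. The fitted log2 fold change, mutant minus wildtype, lay above 0 for 8 of 10 with a median of 0.23, and the median over all tested genes was 0.01. A count of fitted values above 0 is no call, and 3 of those 8 took the other sign under at least 1 alternative.

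The summed level of the 10 genes was 1043, 1353 and 1524 CPM in M1, M2 and M3 and 1178, 1179 and 1207 CPM in W1, W2 and W3. The 3 wildtype libraries were close together and fell inside the mutant range, with M1 below and M2 and M3 above all of them. Mutant corneas averaged 1307 ± 244 CPM and wildtype corneas 1188 ± 16.2 CPM (SD, n = 3 each). M1 was the lowest mutant library for 8 of the 10 genes, the exceptions being Slc2a1 and Hk1.

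**Figure D1:**
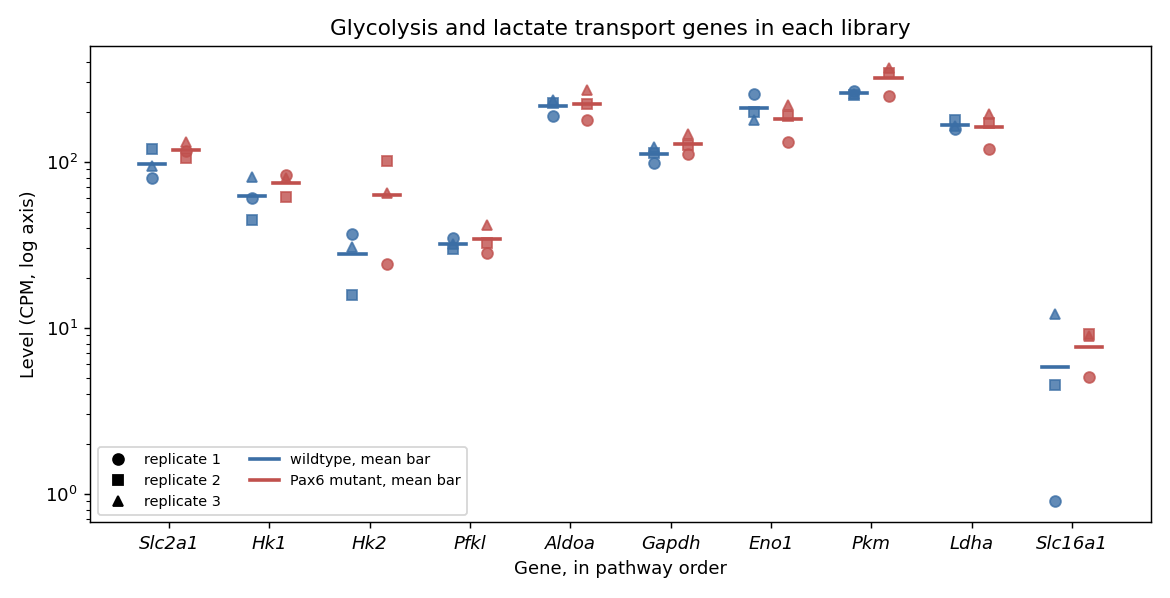
Level of each of the 10 genes in the 6 libraries (CPM, log axis), in pathway order. Points are libraries, with the replicate given by the symbol and the genotype by colour, and short bars are group means. Both genotypes overlap for every gene, and Hk2 (15.7 to 101 CPM) and Slc16a1 (0.908 to 12.0 CPM) are the most scattered.

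Per kilobase of annotated exon, the order of the levels in wildtype corneas was Aldoa with a mean of 74.6 CPM per kb, Pkm with 51.5, Ldha with 50.3, Eno1 with 39.2, Slc2a1 with 27.8, Gapdh with 26.9, Hk1 with 7.27, Pfkl with 4.79, Hk2 with 4.63 and Slc16a1 with 1.32. The enzymes of the later steps and lactate dehydrogenase stood above the hexokinases and Pfkl on this scale. Of the neighbours in this order, the ranges over the 3 wildtype libraries overlapped between Pkm and Ldha, Eno1 and Slc2a1, Slc2a1 and Gapdh, Pfkl and Hk2, and Hk2 and Slc16a1, so these pairs were not separated beyond their spread. In mutant corneas the order was the same except that Hk2 stood above Hk1 and Pfkl. The order also depends on the length used: per kilobase of the longest transcript, Eno1 stood above Ldha (104 against 91.7 CPM per kb) and Gapdh above Slc2a1 (33.8 against 29.9 CPM per kb). The place of Gapdh is the least certain. Its annotated exons merge into 2 blocks of 4133 bases and its longest transcript has 3289, while its coding sequence has 1080. A shorter length would raise its level per kilobase, and part of its counts may lie on the copies described below.

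Uptake comes first. Slc2a1 (ENSMUSG00000028645, GLUT1, chromosome 4 from 119108711 to 119137983, plus strand, GRCm38) carries glucose down its gradient across the plasma membrane. Its level was 116, 105 and 131 CPM in M1, M2 and M3 and 79.3, 118 and 94.3 CPM in W1, W2 and W3. W2 lay within the mutant range and the other wildtype libraries below it. The log2 fold change of Slc2a1 was 0.27 ± 0.17 (SE; 95% interval -0.12 to 0.65; adjusted p = 0.40, edgeR quasi-likelihood with Benjamini-Hochberg adjustment). Of the other glucose transporters listed, Slc5a1, the sodium-coupled transporter SGLT1, was the most abundant, at 214, 359 and 387 CPM in M1, M2 and M3 and 236, 97.3 and 75.5 CPM in W1, W2 and W3. Only W1 reached the mutant range. Slc5a1 was not called (log2 fold change 1.23 ± 0.42, edgeR adjusted p = 0.11), but without W1 it was (1.89, edgeR adjusted p = 0.0027), in a fit that called 12.9% of its 16046 genes, and likewise without M1 and W1 (2.09) and with no low-count filter. Without any of the other 5 libraries its adjusted p by edgeR was 0.13 to 0.32.

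Slc2a9, a carrier best known for urate, was the one glucose transporter called higher. It stood at 7.28, 4.27 and 3.96 CPM in M1, M2 and M3 and at 1.70, 1.36 and 1.55 CPM in W1, W2 and W3, so every mutant library lay above every wildtype library. The log2 fold change of Slc2a9 was 1.74 ± 0.42 (SE, n = 3 per group; edgeR adjusted p = 0.037), a 3.35-fold higher level. The call was lost without M1 (edgeR adjusted p = 0.15), M2 (0.089), M3 (0.093), W2 (0.10) or W3 (0.089), each a fit on fewer libraries, and it was also lost without M1 and W1 together (0.097), with sex as a covariate (0.11), after a GC and length correction (0.061) and by limma-voom (0.059). Slc2a3, Slc2a4, Slc2a8, Slc2a12 and Slc2a13 were at 0.227 to 8.80 CPM in every library except Slc2a13 in W1 at 0.113 CPM, and none was called. Within the Slc2a carriers, Slc2a1 held 86.7% ± 2.91 of the CPM per kb in mutant and 86.4% ± 0.904 in wildtype corneas (SD, n = 3; exact two-sided permutation p = 1.0, smallest possible 0.10).

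Hexokinases trap glucose in the cell as glucose 6-phosphate; Hk1 is the broadly expressed form and Hk2 the form that is regulated in many tissues. Hk2 (ENSMUSG00000000628, chromosome 6 from 82725025 to 82774454, minus strand) stood at 24.2, 101 and 64.4 CPM in M1, M2 and M3 and at 36.8, 15.7 and 30.4 CPM in W1, W2 and W3. M2 and M3 were above every wildtype library, and M1 was below W1 and W3. Mutant corneas averaged 63.1 ± 38.2 CPM and wildtype corneas 27.7 ± 10.8 CPM (SD, n = 3 each). For Hk2 the log2 fold change was 1.19 ± 0.49 (SE; 95% interval 0.06 to 2.32), a 2.28-fold higher fitted level, and its edgeR adjusted p was 0.19.

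The Hk2 value depended on single libraries. Leaving out each library in turn gave log2 fold changes of 0.68 to 1.58, with edgeR adjusted p-values of 0.055 (without M1) to 0.52 (without M2). Without M1 and W1 together, Hk2 was called higher (1.82, edgeR adjusted p = 0.014), in a fit that called 11.4% of its 15563 genes. With no filter on low counts it was also called (edgeR adjusted p = 1.1e-09), in a fit whose gene-wise spread was shrunk fully to the trend. Hk1 (ENSMUSG00000037012, chromosome 10 from 62268855 to 62379908, minus strand) stood at 83.1, 60.9 and 79.3 CPM in M1, M2 and M3 and at 60.3, 44.6 and 81.2 CPM in W1, W2 and W3. W3 lay within the mutant range. Hk1 had a log2 fold change of 0.26 ± 0.22 (SE; 95% interval -0.25 to 0.78; edgeR adjusted p = 0.55).

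The balance of the hexokinases differed more between mutant libraries than between genotypes. Hk2 made up 27.6%, 68.7% and 53.1% of hexokinase CPM per kb in M1, M2 and M3 and 46.4%, 33.0% and 34.0% in W1, W2 and W3. The wildtype shares lay inside the mutant range. The difference in share, mutant minus wildtype, was 12.0 percentage points (exact two-sided permutation p = 0.4, n = 3 per group; 0.57 after Benjamini-Hochberg adjustment over the 10 shares tested). Hk3 and Hkdc1 averaged below 1 CPM over the 6 libraries.

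Among tested genes with at least 5 CPM on average (10071 genes), the 4 whose log2 CPM followed that of Hk2 most closely over the 6 libraries were 5430416N02Rik, a gene known by its clone name (Pearson r = 0.98), D6Wsu163e (0.97), Cnpy4 (0.97) and Uap1 (0.97), which makes UDP-N-acetylglucosamine. They were picked as the highest of many, over points that share library depth and cell makeup. None of the 4 was called between the genotypes (edgeR adjusted p 0.47 to 0.56).

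Phosphofructokinase commits sugar to glycolysis, and its 3 subunits, liver-type Pfkl, muscle-type Pfkm and platelet-type Pfkp, combine into tetramers. Pfkl (ENSMUSG00000020277, chromosome 10 from 77986947 to 78010083, minus strand) stood at 28.2, 32.2 and 41.6 CPM in M1, M2 and M3 and at 34.5, 29.7 and 31.7 CPM in W1, W2 and W3, with all wildtype libraries inside the mutant range. Its log2 fold change was 0.09 ± 0.17 (SE; 95% interval -0.31 to 0.49; edgeR adjusted p = 0.81). Pfkm stood at 18.9, 10.7 and 14.4 CPM in M1, M2 and M3 and at 23.5, 21.5 and 31.5 CPM in W1, W2 and W3. Every mutant library lay below every wildtype library, but Pfkm was not called (-0.80 ± 0.25, edgeR adjusted p = 0.086). DESeq2 called it lower (adjusted p = 0.031), as did edgeR without M1 and W1 (0.035), after a GC and length correction (0.037) and with no low-count filter (0.0080). Pfkp stood at 29.3, 23.2 and 43.3 CPM in M1, M2 and M3 and at 4.03, 12.3 and 28.2 CPM in W1, W2 and W3. W3 overlapped the mutant range, and Pfkp was not called (1.10 ± 0.58, edgeR adjusted p = 0.30).

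Of the 3 subunits, Pfkm and Pfkp had shares that did not overlap between the genotypes, and Pfkl had one that did. Pfkm made up 46.8%, 32.7% and 31.3% of phosphofructokinase CPM per kb in M1, M2 and M3 and 56.3%, 54.5% and 57.9% in W1, W2 and W3. Pfkp made up 18.2%, 17.8% and 23.5% in M1, M2 and M3 and 2.40%, 7.76% and 12.9% in W1, W2 and W3. The difference, mutant minus wildtype, was -19.3 percentage points for Pfkm and 12.1 for Pfkp. Each gave an exact two-sided permutation p of 0.1 (n = 3 per group), the smallest that 3 against 3 libraries can give, and 0.5 after Benjamini-Hochberg adjustment over the 10 shares. The share of Pfkl was 43.2% ± 7.46 in mutant and 36.1% ± 6.25 in wildtype corneas (SD, n = 3; exact permutation p = 0.3). Exons of Pfkm and Pfkp overlap those of neighbouring genes (Senp1 and Gm26513 for Pfkm, and Pitrm1 over 748 bases for Pfkp). The sources used here do not give the strand setting of the counting, so the levels of both are uncertain to that extent.

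**Figure D2:**
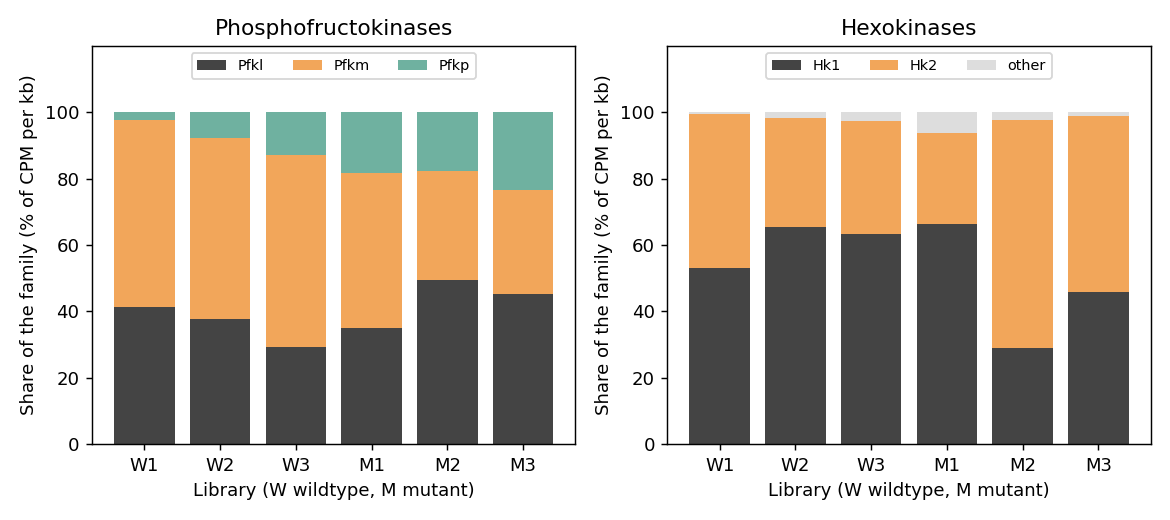
Share of each gene in the summed CPM per kb of its family (percent, bars stacked to 100) in each of the 6 libraries, for the phosphofructokinases (left) and the hexokinases (right). The Pfkm part is 54.5% to 57.9% in the wildtype bars and 31.3% to 46.8% in the mutant bars, while the Hk2 part spans 27.6% to 68.7% in the mutant bars alone.

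Aldoa (ENSMUSG00000030695, chromosome 7 from 126795234 to 126800751, minus strand), which splits fructose 1,6-bisphosphate, stood at 178, 221 and 272 CPM in M1, M2 and M3 and at 189, 227 and 235 CPM in W1, W2 and W3. The wildtype libraries lay inside the mutant range. Aldoa had a log2 fold change of 0.04 ± 0.17 (SE; 95% interval -0.35 to 0.44; edgeR adjusted p = 0.92). Its exons share 25 bases with Fam57b on the opposite strand, a gene with 773 counts in W3 and 12 to 67 in the others. Aldoa held 89.9% ± 2.12 of aldolase CPM per kb in mutant and 88.6% ± 2.58 in wildtype corneas (SD, n = 3; exact permutation p = 0.6), and Aldoc held nearly all the rest.

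Gapdh oxidises glyceraldehyde 3-phosphate and Eno1 makes phosphoenolpyruvate. Both have near-identical copies elsewhere in the genome, and read pairs from such a pair of genes can be split between them or set aside as not unique, so their counts are the least certain of the 10. Copies were sought among GENCODE transcripts at 98% identity or more over at least 500 bases. Gapdh had 42, of which 39 were pseudogenes, with 713 to 1341 counts in all per library, equal to 24.9% to 30.4% of the count of Gapdh and its copies together. Most fell on Gm13394, which differed from the Gapdh coding sequence at 1 of 1000 aligned bases. Eno1 had 2, with 671 to 1253 counts per library (20.2% to 24.0% of the total): Eno1b, and Gm4735, which differed at 5 of 1302 aligned bases. Pkm had 1 copy, with 6 to 27 counts, and the other 7 genes had none.

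The sequences that follow show how little separates these genes from their copies, which is why each count is given with its copies. They are 80-base stretches of coding sequence (GENCODE M21 on GRCm38, sense strand, 5′ to 3′), at bases 384 to 463 of the Gapdh and 1016 to 1095 of the Eno1 coding sequence, with the 1 base that differs in capitals. Gm13394 and Gm4735 lie on chromosome 2.
Gapdh: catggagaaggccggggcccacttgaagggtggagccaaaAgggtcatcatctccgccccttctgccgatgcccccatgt
Gm13394: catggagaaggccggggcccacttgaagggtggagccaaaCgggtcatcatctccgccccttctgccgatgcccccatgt
Eno1: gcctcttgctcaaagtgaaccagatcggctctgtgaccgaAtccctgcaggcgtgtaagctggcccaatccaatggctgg
Gm4735: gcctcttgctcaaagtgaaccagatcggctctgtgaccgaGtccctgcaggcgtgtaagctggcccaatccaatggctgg
Reads that cover such a stretch without the capital base fit gene and copy equally well.

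Gapdh (ENSMUSG00000057666, chromosome 6 from 125161715 to 125166467, minus strand) stood at 110, 127 and 147 CPM in M1, M2 and M3 and at 98.6, 113 and 122 CPM in W1, W2 and W3. M1 lay inside the wildtype range, and M2 and M3 above it. Gapdh had a log2 fold change of 0.20 ± 0.14 (SE; 95% interval -0.13 to 0.53; edgeR adjusted p = 0.46), and with its copies added 0.22 (0.38). Eno1 (ENSMUSG00000063524, chromosome 4 from 150236721 to 150248879, plus strand) stood at 132, 187 and 220 CPM in M1, M2 and M3 and at 255, 199 and 179 CPM in W1, W2 and W3. M1 held the lowest and W1 the highest value of Eno1, and the other 4 libraries lay close together. The log2 fold change of Eno1 was -0.23 ± 0.21 (SE; 95% interval -0.72 to 0.25; edgeR adjusted p = 0.58), -0.26 (0.49) with its copies added and 0.09 (0.70) without M1 and W1.

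Eno1 made up 91.7%, 96.4% and 95.2% of enolase CPM per kb in M1, M2 and M3 and 98.9%, 96.6% and 82.6% in W1, W2 and W3. W3 held the lowest share and W1 the highest. The remainder was mainly Eno2, the neuronal enolase, at 0.284, 1.93 and 21.1 CPM in W1, W2 and W3 and 2.11 to 8.20 CPM in the mutant libraries. Eno3, the muscle enolase, averaged 1.20 CPM in mutant and 2.24 CPM in wildtype corneas and was not called. W3 held most of the retina markers, with 5 genes summing to 1642 CPM against 11.3 to 69.6 CPM in the other libraries, and of the skeletal muscle markers, with 8 genes summing to 41.2 CPM against 0.965 to 3.86 CPM. Their part in the Eno2 value was not tested. The share of Eno1 was 94.4% ± 2.45 in mutant and 92.7% ± 8.85 in wildtype corneas (SD, n = 3; exact permutation p = 1.0), and without W3 the difference turned from 1.74 to -3.33 percentage points.

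Pkm (ENSMUSG00000032294, chromosome 9 from 59656368 to 59679375, plus strand) makes pyruvate and ATP; its M1 and M2 isoforms are not separated in gene counts. It stood at 247, 340 and 368 CPM in M1, M2 and M3 and at 265, 251 and 256 CPM in W1, W2 and W3. The wildtype libraries differed little, with M1 just below and M2 and M3 above all of them. Mutant corneas averaged 319 ± 63.2 CPM and wildtype corneas 257 ± 7.16 CPM (SD, n = 3 each), a log2 fold change of 0.31 ± 0.16 (SE; 95% interval -0.06 to 0.67; edgeR adjusted p = 0.29). Without M1 and W1 together, it was 0.47 and was called (edgeR adjusted p = 0.026).

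Ldha (ENSMUSG00000063229, chromosome 7 from 46841475 to 46855627, plus strand) encodes the subunit that favours the making of lactate from pyruvate. Ldha stood at 119, 171 and 192 CPM in M1, M2 and M3 and at 158, 177 and 165 CPM in W1, W2 and W3, with the wildtype libraries inside the mutant range. Its log2 fold change was -0.05 ± 0.18 (SE; 95% interval -0.46 to 0.36; edgeR adjusted p = 0.90). Ldhb, the subunit that favours the reverse step, was at 33.6 to 39.5 CPM in mutant libraries and at 14.6, 38.7 and 29.6 CPM in W1, W2 and W3, and was not called (0.39, edgeR adjusted p = 0.51). Ldha made up 66.7% ± 5.15 of lactate dehydrogenase CPM per kb in mutant and 73.8% ± 7.20 in wildtype corneas (SD, n = 3; exact permutation p = 0.3). Ldhd, which acts on D-lactate, averaged 2.08 CPM in mutant and 3.15 CPM in wildtype corneas and was not called.

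Slc16a1 (ENSMUSG00000032902, MCT1, chromosome 3 from 104638668 to 104658462, plus strand) carries lactate together with a proton. It was the least abundant of the 10 genes, with 82, 165 and 197 counts in M1, M2 and M3 and 16, 80 and 225 counts in W1, W2 and W3. Its level was 5.02, 9.16 and 8.87 CPM in the mutant and 0.908, 4.54 and 12.0 CPM in the wildtype libraries. The wildtype libraries spanned a range of 13.3-fold that enclosed all mutant libraries. Slc16a1 had a log2 fold change of 0.40 ± 0.74 (SE; 95% interval -1.31 to 2.10; edgeR adjusted p = 0.81), an interval too wide to bound the difference in either direction. It was 1.46 without W3 and -0.11 without W1.

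W1, the lowest library for Slc16a1, was also low in summed markers of blood vessel, retina and melanocytes. The sums for conjunctiva (8591 CPM) and leukocytes (50.2 CPM) were highest in W1 among wildtype libraries, mostly through Muc4 (8235 CPM) and Itgam (42.8 CPM). Muc5ac and Fcer1g were also highest in W1, and Ptprc lay between the other wildtype libraries. The conjunctiva markers Krt13, Krt4, Krt19 and Krt7 were lowest in W1 among wildtype libraries. So were the leukocyte markers Laptm5, Tyrobp, Cd74, Lyz2 and Csf1r. Blood vessel markers (7 genes) summed to 2.84, 36.4 and 43.8 CPM in W1, W2 and W3 and to 52.9 to 118 CPM in mutant libraries, and retina markers (5 genes) to 11.3, 51.2 and 1642 CPM in W1, W2 and W3 and to 15.2 to 69.6 CPM in mutant libraries. Melanocyte markers (5 genes) summed to 9.82, 305 and 187 CPM in W1, W2 and W3 and to 235 to 413 CPM in mutant libraries. Of all 6 libraries, W1 was the lowest for Slc16a1 and for each of these 3 lists, with 2 of 7 vessel markers at 0, Cdh5 among them, and 1 of 5 melanocyte markers at 0. Their part in the Slc16a1 values was not tested.

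**Figure D3:**
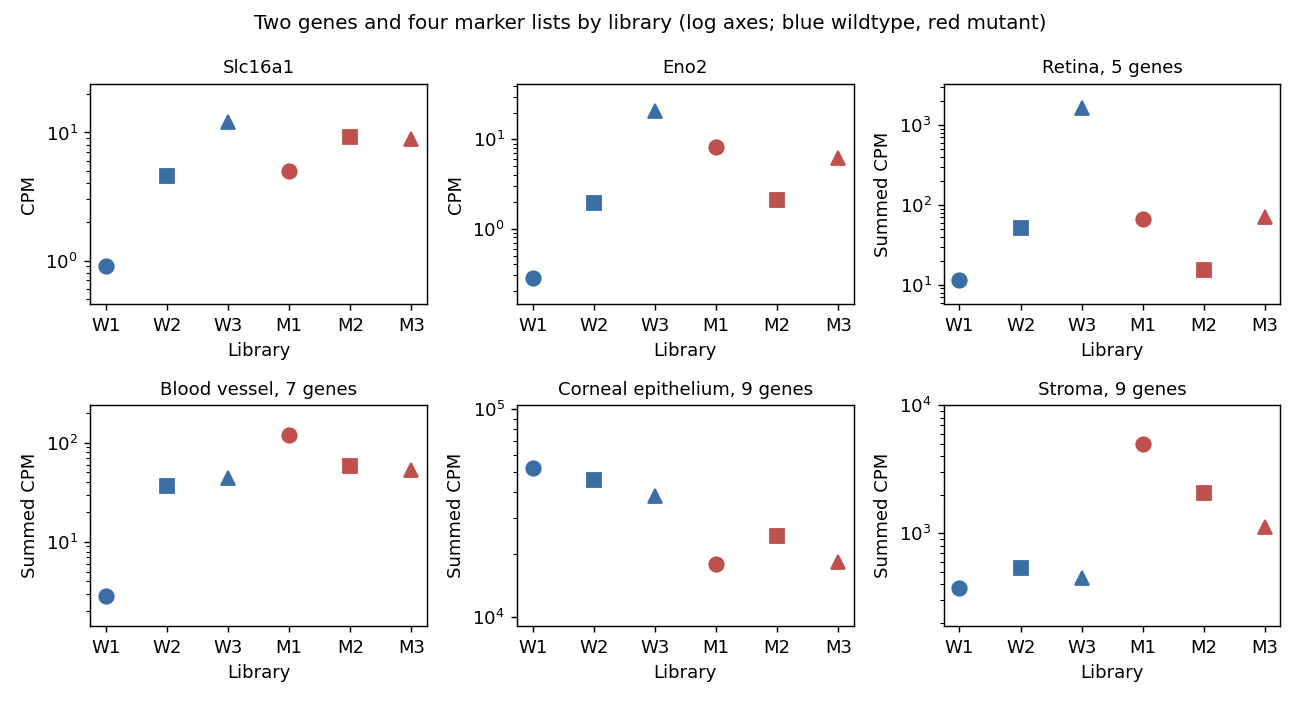
Level of Slc16a1 and Eno2 (CPM, log axes) and summed level of 4 marker lists (summed CPM, log axes) in each library, with wildtype in blue and mutant in red. Slc16a1 is lowest in W1 (0.908 CPM) and highest in W3 (12.0 CPM), as are the 5 retina markers (11.3 and 1642 CPM).

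The other lactate carriers averaged lower than Slc16a1 in both genotypes, though in W1 Slc16a7 (2.44 CPM) stood above Slc16a1 (0.908 CPM). Slc16a3, the exporter of glycolytic tissues, stood at 2.39, 1.39 and 2.43 CPM in M1, M2 and M3 and at 0.511, 0.624 and 1.77 CPM in W1, W2 and W3, with only W3 inside the mutant range, and was not called (1.09 ± 0.66, edgeR adjusted p = 0.37). Slc16a7 (1.35 to 4.28 CPM) and Slc16a8, the carrier of the retinal pigment epithelium (0 to 3.24 CPM), were not called either. Slc16a1 made up 68.8% ± 9.85 of the CPM per kb of these 4 carriers in mutant and 46.8% ± 13.9 in wildtype corneas (SD, n = 3; exact permutation p = 0.2). These carriers reach the membrane with a partner protein. Bsg, the partner of Slc16a1 and Slc16a3, was at 172 to 256 CPM in mutant and 188 to 287 CPM in wildtype libraries (-0.13, edgeR adjusted p = 0.75). Emb, another partner, stood at 41.0, 21.0 and 27.2 CPM in M1, M2 and M3 and at 1.65, 10.4 and 9.47 CPM in W1, W2 and W3. Every mutant library lay above every wildtype library for Emb, which was not called (2.05 ± 0.58, edgeR adjusted p = 0.063) but was without W1 (edgeR adjusted p = 0.010), without M1 and W1 (0.013), with no low-count filter (4.7e-14) and by limma-voom (0.031). Emb and Bsg were named after their values had been seen.

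The enzymes between the listed steps were named, after their values had been seen, to complete the pathway. Tpi1 stood at 48.5, 57.8 and 66.0 CPM in M1, M2 and M3 and at 28.4, 46.5 and 35.4 CPM in W1, W2 and W3, without overlap, and was not called (0.64 ± 0.20, edgeR adjusted p = 0.089), though DESeq2 (0.041) and edgeR with no low-count filter (0.0047) called it higher. Gpi1 stood at 193, 177 and 209 CPM in M1, M2 and M3 and at 168, 151 and 153 CPM in W1, W2 and W3. It did not overlap either and was not called (0.29 ± 0.12, edgeR adjusted p = 0.17). Pgk1 (0.40) and Pgam1 (0.14) had log2 fold changes above 0, overlapped between the genotypes and were not called (edgeR adjusted p 0.40 and 0.75). In the 40 enzymes and transporters of glycolysis and lactate exchange listed besides the 10, 28 were tested, 1 was called higher, Slc2a9, and 1 lower, Galm. The share called was 7.14%, against 10.1% of all tested genes.

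Galm, which interconverts the 2 forms of the glucose and galactose ring, stood at 5.08, 7.10 and 7.47 CPM in M1, M2 and M3 and at 12.9, 21.3 and 20.0 CPM in W1, W2 and W3. All mutant libraries lay below all wildtype libraries. Galm fell by 1.46 ± 0.27 on the log2 scale (edgeR adjusted p = 0.014), and the adjusted p was 0.051 to 0.057 without M1, M2, M3 or W2 and 0.058 with sex as a covariate.

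The wider lists, 91 genes of which 74 were tested, also cover entry of pyruvate into mitochondria, gluconeogenesis, and regulators and targets of the hypoxia response. In all, 4 were called higher and 5 lower, 12.2% of those tested, and their median log2 fold change was 0.14. Entry of pyruvate into mitochondria had 1 call among 13 tested genes. This was Pdk2, a kinase that holds pyruvate dehydrogenase inactive, at 65.1, 48.2 and 58.6 CPM in M1, M2 and M3 and 85.5, 80.5 and 82.4 CPM in W1, W2 and W3, without overlap. Pdk2 fell by 0.53 ± 0.14 on the log2 scale (edgeR adjusted p = 0.046), a call that was lost without any 1 of the 6 libraries (0.052 to 0.14) and with sex as a covariate (0.053). Of 5 regulators of phosphofructokinase and 4 genes of gluconeogenesis tested, 0 were called by edgeR, and 1 of each passed an unadjusted p of 0.05.

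Cells sense oxygen through prolyl hydroxylases, encoded by Egln1 to Egln3, which mark the alpha subunits of hypoxia-inducible factors for destruction, and these factors drive many glycolytic genes, Slc2a1, Hk2, Pkm and Ldha among them. Egln3 stood at 82.9, 125 and 90.1 CPM in M1, M2 and M3 and at 511, 427 and 434 CPM in W1, W2 and W3. Every mutant library was far below every wildtype library. Egln3 fell by 2.20 ± 0.18 on the log2 scale (SE, n = 3 per group; edgeR adjusted p = 0.00061), a 4.61-fold lower level, and stayed called in all 18 alternatives.

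Egln1, the main hydroxylase in most cells, stood at 62.0, 68.5 and 65.5 CPM in M1, M2 and M3 and at 97.1, 94.5 and 91.4 CPM in W1, W2 and W3, again without overlap. It fell by 0.53 ± 0.11 on the log2 scale (edgeR adjusted p = 0.019), and the call was lost without M1, M2, M3 or W2 (0.058 to 0.088) and with sex as a covariate (0.070). Of the 12 tested regulators of glycolytic transcription these were the 2 called, both lower, a share of 16.7% against 10.1% of all tested genes. The factors themselves, named after their values had been seen, were not called. Hif1a was at 116 to 159 CPM in mutant and 121 to 134 CPM in wildtype libraries (0.14, edgeR adjusted p = 0.61), and Epas1 at 638 to 860 CPM against 850 to 1188 CPM (-0.46, edgeR adjusted p = 0.16). Hif3a was low, at 2.16 to 5.49 CPM in mutant and 0.0567 to 1.34 CPM in wildtype libraries, without overlap (2.56, edgeR adjusted p = 0.12).

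Of 16 hypoxia-inducible genes outside glycolysis, 14 were tested, 3 were called higher and 2 lower, a share of 35.7% against 10.1% of all tested genes. Egln3 is counted both here and among the regulators of glycolytic transcription. The pathway lists were chosen with earlier results of these data known, so a share above that of all genes is not a test of any list. Vegfa, the vascular endothelial growth factor, stood at 34.7, 33.4 and 27.1 CPM in M1, M2 and M3 and at 11.2, 13.7 and 14.9 CPM in W1, W2 and W3. It rose by 1.26 ± 0.18 on the log2 scale (edgeR adjusted p = 0.0046). Car12, a membrane carbonic anhydrase, stood at 30.4, 25.2 and 42.5 CPM in M1, M2 and M3 and at 6.58, 8.12 and 5.83 CPM in W1, W2 and W3, and rose by 2.26 ± 0.25 (edgeR adjusted p = 0.0015). Neither gene overlapped between the genotypes, and both stayed called in all 18 alternatives.

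P4ha1, a collagen prolyl hydroxylase, rose by 0.73 ± 0.18 on the log2 scale (17.1 to 18.1 CPM in mutant, 9.79 to 11.9 CPM in wildtype libraries; edgeR adjusted p = 0.039). Its call held without W1 and was lost without any other 1 library (0.10 to 0.15), without M1 and W1 together (0.064), with sex as a covariate (0.11), after the GC and length correction (0.19) and with no low-count filter (0.078). Kdm3a, a histone demethylase, fell by 0.52 ± 0.12 (51.4 to 57.2 CPM against 73.5 to 84.7 CPM; edgeR adjusted p = 0.027), lost without M1, M2, M3 or W2 (0.075 to 0.11) and with sex as a covariate (0.074). The other gene of the list that fell was Egln3. The list thus held calls in both directions, with a median log2 fold change of 0.44, while Slc2a1, Hk2, Pkm and Ldha were at 0.27, 1.19, 0.31 and -0.05 and were not called. Corneal epithelium and conjunctiva markers moved in the same libraries as Egln3, Vegfa and Car12 (the ranges are given with the library depths), and their part in these values was not tested.

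**Figure D4:**
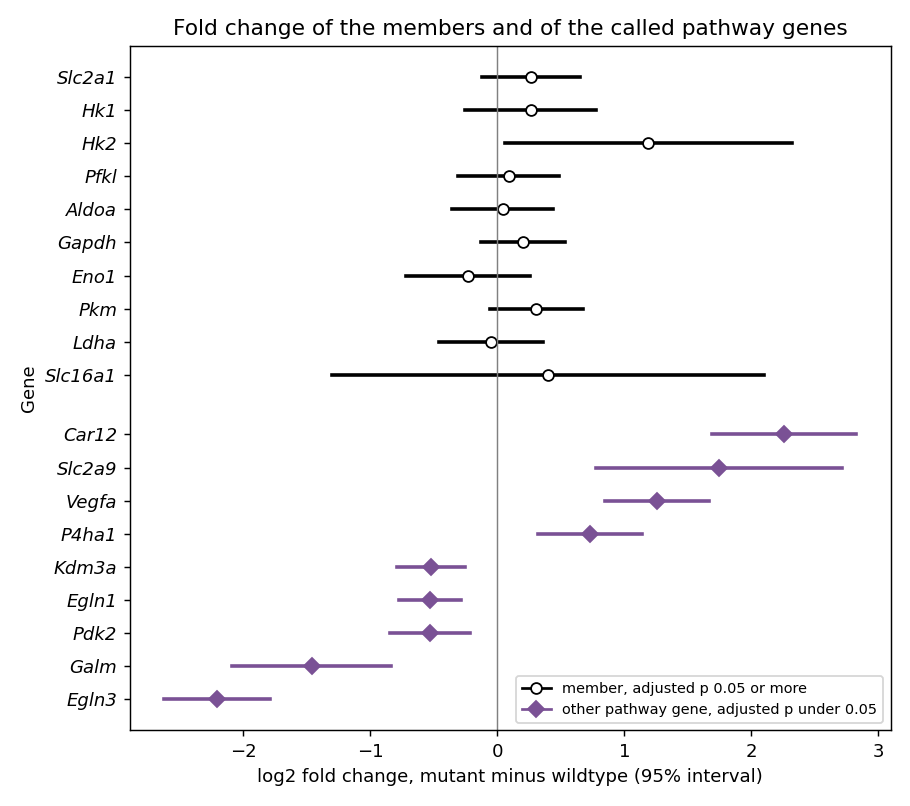
Log2 fold change, mutant minus wildtype, with its 95% interval for the 10 genes (black, open circles, in pathway order) and for the 9 other pathway genes called at an adjusted p of 0.05 (purple diamonds). The 10 genes lie between -0.23 and 1.19 with Hk2 and Slc16a1 the least precise, while the 9 called genes run from Car12 at 2.26 to Egln3 at -2.20.

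The promoters of these genes were searched for the core letters of the hypoxia response element, ACGTG or GCGTG on either strand; CACGTG, which reads the same on both strands, then counts as 2 matches. Windows ran from 250 bases before to 50 bases after the start of transcription (RefSeq, GRCm38.p6). For genes with several windows, such as Hk1 with 2, Aldoa with 3 and Pkm with 2, the window nearest to the annotated gene start was used. All 10 genes had a window, and 7 held at least 1 match, against 43.8% of all 32851 windows; of all genes in the table, 46.7% held a match in at least 1 of their windows. Ldha had 7 matches, Slc16a1 had 5, Gapdh had 3, Slc2a1, Hk2 and Eno1 had 2 each, Pfkl had 1, and Hk1, Aldoa and Pkm had none. Egln3 had 1, and Vegfa and Car12 had none. Matches were not tested against fold changes. A match is a string of letters, not a bound site, and these windows leave out enhancers and the gene body.

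Hk2, Ldha and Egln3 are shown, as the gene of the 10 with the smallest p, the one with the most matches and the oxygen sensor that fell most. Each line is the 250 bases before the start, read 5′ to 3′ on the gene's own strand, with the matches in capitals. Hk2 is at chr6:82774455-82774704 on the minus strand, Ldha at chr7:46845554-46845803 on the plus strand and Egln3 at chr12:54203875-54204124 on the minus strand.
Hk2: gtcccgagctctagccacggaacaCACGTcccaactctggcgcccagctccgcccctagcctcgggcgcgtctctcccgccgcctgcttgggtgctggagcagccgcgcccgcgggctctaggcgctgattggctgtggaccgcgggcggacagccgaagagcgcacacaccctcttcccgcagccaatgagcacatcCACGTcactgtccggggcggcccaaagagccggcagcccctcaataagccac
Ldha: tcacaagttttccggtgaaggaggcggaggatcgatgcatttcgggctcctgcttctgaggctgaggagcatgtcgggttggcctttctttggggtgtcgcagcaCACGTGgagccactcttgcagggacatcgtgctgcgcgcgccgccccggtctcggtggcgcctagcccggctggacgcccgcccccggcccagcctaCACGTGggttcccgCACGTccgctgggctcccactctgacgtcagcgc
Egln3: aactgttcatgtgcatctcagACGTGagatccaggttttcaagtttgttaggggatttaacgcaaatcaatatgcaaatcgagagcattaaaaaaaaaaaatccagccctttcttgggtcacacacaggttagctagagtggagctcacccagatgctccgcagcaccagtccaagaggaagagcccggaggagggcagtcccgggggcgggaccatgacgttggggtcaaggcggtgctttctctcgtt
Of the 3 capitalised strings of Ldha, 2 are the palindrome CACGTG, and the matches not shown lie after the start.

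Counting limits touch 5 of the 10 genes besides the copies. Exons of Slc2a1, Hk1, Aldoa and Gapdh share 25 to 157 bases with a gene on the opposite strand, and those of Pkm 767 bases with Gm49759 on the same strand, which had 26 to 83 counts per library. No exon of another annotated gene overlaps Hk2, Pfkl, Eno1, Ldha or Slc16a1. The 95% intervals of Slc2a1, Hk1, Pfkl, Aldoa, Gapdh, Eno1, Pkm and Ldha all lay within -0.72 to 0.78 on the log2 scale, so differences above 1 in either direction lay outside the interval of each of these 8 genes. The interval of Hk2 included a rise above 1, and that of Slc16a1 a rise or a fall above 1.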

How the data were processed

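Total RNA was extracted from corneas with a column kit and made into stranded total RNA libraries for low input, sequenced as paired reads, per the labels' protocols. The authors deposited raw counts per Ensembl gene, 1 file per library, and per the submitters' processing notes used Trim Galore, HISAT2, SAMtools, HTSeq and edgeR with GRCm38; their versions and the strand setting are not given in the sources at hand. HTSeq summary lines were left out; read pairs not uniquely aligned were 2.83% to 4.40% of each file.

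IDs were matched to GENCODE M21 symbols (55240 of 55421); Aldoa has 2 IDs, and the one with more counts was used. Counts were fitted in R 4.3.3 with edgeR 4.0.16: filterByExpr (minimum count 10, minimum total 15), TMM, and the quasi-likelihood test with genotype as the only term and Benjamini-Hochberg adjustment over 15209 genes. Library totals of 16858005 to 21846406 counts set the precision. Family shares used CPM per kilobase of merged exons and an exact permutation test. Chi-square tests of the counts, divided by their degrees of freedom, gave 19.4 to 60.1 for pairs within a group, so no library was taken for a duplicate of another.

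The 10 genes, the pathway lists and the marker lists were chosen with earlier results of these data known. Named genes are the 10, every other list gene called, family members with at least 1 CPM on average, and 4 genes most like the one with the smallest p; others are said to be chosen later. Alternatives were other normalizations, DESeq2 1.42.0, limma-voom (limma 3.58.1), other filters, sex as a covariate, a GC and length correction, copies added, and leaving out libraries. With M1 the only female library, the sex covariate came close to leaving out M1 and was not a separate check. Tested on simulated data (5 sets of 15209 genes, 200 changed), the fit called 23.1% of genes changed 2-fold and 59.0% of those changed 4-fold, with 7.96% of calls false. The changed genes were drawn at random from all those tested, at any level.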

Additional observations from a re-analysis of the deposited data

How the results depend on the processing

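Over 18 alternatives, 167 of the 180 fold changes of the 10 genes kept their direction and stayed uncalled. The 3 that became called were Hk2 with no low-count filter (1 member higher) and Hk2 and Pkm without M1 and W1 together (2 members higher); no alternative called a member lower. The 10 changes of sign were all among uncalled genes. Pfkl was -0.11 and Aldoa -0.10 after the GC and length correction, Ldha 0.12 with sex as a covariate, and Eno1 0.093 and Ldha 0.072 without M1 and W1. Without 1 library, Pfkl ranged from -0.089 (without M3) to 0.21, Aldoa from -0.13 (without M3; -0.05 without W1) to 0.19, Ldha from -0.21 to 0.13 (without M1) and Slc16a1 from -0.11 (without W1) to 1.46. The GC and length correction moved the median of all genes to -0.19 from 0.01. Differences in share, in percentage points, ranged without 1 library from -1.37 (without M3; -0.11 without W3) to 1.22 for Slc2a1, from -0.032 (without W2) to 2.55 for Aldoa and from -3.33 (without W3) to 4.85 for Eno1; Slc2a1 was at -0.33 with the longest transcript.

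Counts over all genes, higher and lower, were 307 and 261 at an adjusted p of 0.01, 1588 and 1137 with no filter, 471 and 376 with sex as a covariate, and 340 to 1227 and 271 to 847 without 1 library, the highest without W1; DESeq2 called 1324 higher and the GC and length correction 561. In the wider lists, 2 were higher and 1 lower at 0.01 and with sex as a covariate, 10 and 8 by DESeq2, 14 and 8 with no filter, 2 higher after the GC and length correction, 9 lower without M1 and W1, and 2 to 9 higher and 1 to 5 lower without 1 library, 9 of them without W1. The cause of these moves was not tested, beyond fewer libraries giving a weaker test. The numbers of genes and libraries limit what can be seen: of genes changed 2-fold in simulation 23.1% were called, so a missing call does not show equal levels. No paired analysis was possible because no sample number in the labels is shared by both genotypes, and the replicate numbers used here only name the libraries in accession order.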

Other observations

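Pcx, the pyruvate carboxylase that feeds gluconeogenesis and the citric acid cycle, was named after its values had been seen. It stood at 143, 153 and 160 CPM in M1, M2 and M3 and at 127, 86.2 and 91.4 CPM in W1, W2 and W3, so every mutant library lay above every wildtype library. Pcx had a log2 fold change of 0.58 ± 0.16 (SE, n = 3 per group) and was not called (Benjamini-Hochberg adjusted p = 0.061, edgeR quasi-likelihood test). Without W1 it was called (0.78, edgeR adjusted p = 0.0031), and without any of the other 5 libraries its adjusted p was 0.12 to 0.21; DESeq2 (0.021) and limma-voom (0.044) called it too.

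Txnip, an inhibitor of glucose uptake whose RNA follows sugar supply, and Pdk4, a kinase of pyruvate dehydrogenase, were also named after their values had been seen. Txnip was at 627, 362 and 489 CPM in M1, M2 and M3 and at 309, 341 and 315 CPM in W1, W2 and W3, and Pdk4 averaged 3.29 ± 2.62 CPM in mutant and 0.244 ± 0.334 CPM in wildtype corneas (SD, n = 3 each). Neither overlapped between the genotypes and neither was called by edgeR (adjusted p 0.091 and 0.097), while DESeq2 called both higher (adjusted p 0.016 and 0.0027). Exons of Txnip share 606 bases with Gm15441 on the opposite strand.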
